A study of Mus musculus with 25 samples.

Results

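The livers of mice given 5% mannose in the drinking water on an ordinary chow diet were compared with livers of mice on the same chow without mannose. Of the 25 liver RNA libraries of the series, 4 belong to this comparison: the 2 labelled normal diet with 5% mannose and the 2 normal-diet libraries of the same (second) batch, which the labels number replicates 4 and 5. All came from male C57BL/6J mice that entered the study at 8 weeks of age and were kept for 12 weeks, to 20 weeks of age. The mannose mice drank a 5% (w/v) solution freely for the full 12 weeks, and the controls drank plain water. Also used were the 3 second-batch libraries of normal diet with 20% mannose, and, from the first batch, 3 libraries each of the FAT-MASH regimen with 5% mannose from the start (the prevention arm), of the regimen alone, and of normal diet. In the regimen, mice ate chow rich in fat, sucrose and cholesterol, drank fructose and glucose water and were injected weekly with carbon tetrachloride, a liver toxin. The labels call the libraries biological replicates and give 3 to 5 mice a cage. Which mice shared a cage or litter, how much they drank and when the livers were taken is not stated, so that p-values measure the spread between these livers only. The 4 libraries hold 35971380 to 49752882 counts. Albumin, the main protein that hepatocytes secrete, had 73850 (replicate 1) and 66849 CPM with 5% mannose, against 81543 and 56927 CPM without, so all 4 libraries carry the labelled tissue's leading transcript (CPM is the share of a library's counts, after scaling the libraries to one another, on the usual scale of RNA sequencing). For Alb the groups overlapped.

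Mannose is a hexose that hepatocytes take up, phosphorylate with hexokinases and pass to one of 2 fates. Phosphomannose isomerase (Mpi) turns mannose 6-phosphate into fructose 6-phosphate, which joins glycolysis. Phosphomannomutase 2 (Pmm2) and the GDP-mannose pyrophosphorylase subunits Gmppa and Gmppb lead instead to GDP-mannose, the donor for the sugar chains that are built in the endoplasmic reticulum and put on secreted proteins. The title of the series puts mannose beside fructose metabolism, which in liver starts with ketohexokinase (Khk). Livers without the regimen show what the sugar goes with in the absence of diet-induced disease.

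No gene passed the threshold between 5% mannose and none on normal diet. Across 18462 genes tested with edgeR's quasi-likelihood test and Benjamini-Hochberg adjustment, 0 had an adjusted p under 0.05 (0% called). An unadjusted p under 0.05 was reached by 1039 genes (5.63%), 460 higher (2.49%) and 579 lower (3.14%). These shares are the scale for the counts of list members given below. DESeq2 called 41 of 17849 genes (0.23%), 10 higher and 31 lower, and limma voom with quality weights called 0. With 2 libraries a group many genes separate the groups: in 16.4% of all genes tested both mannose livers were above both controls and in 18.3% both were below. All genes together had a median log2 fold change of -0.01. The median was -0.19 for genes below 1 CPM and -0.1 from 1 to under 5 CPM. It was 0.0 from 5 to under 50 CPM and 0.05 at 50 CPM or more. Shares of all genes given below are not matched to the level of a list's members. The 2 mannose livers differed from each other by a median of 0.16 on the log2 scale over the 9651 genes with a mean of at least 5 CPM, the 2 controls by 0.18, and the 2 group means by 0.13. Half-widths of the 95% interval of a fold change had a median of 0.28 (1.21-fold) for the 2729 genes at 50 CPM or more and of 0.42 (1.33-fold) for the 6922 genes from 5 to under 50 CPM. For the 5457 genes below 1 CPM the median was 3.46, so that changes of several fold were not detectable there. These intervals are for single genes without adjustment, and a change just beyond them would not pass the threshold at any level. Cyp4a14, for example, had an edgeR unadjusted p of 7.66e-05 and an adjusted p of 0.381. Leaving out control replicate 5 gave 98 genes past the threshold, leaving out control replicate 4 gave 5 and leaving out mannose replicate 2 gave 1, while leaving out mannose replicate 1 gave 0.

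Markers of fat cells separated 1 control from the rest of the comparison. Adipoq, an adipocyte hormone, had 0 counts in both mannose livers, against 394 counts (8.05 CPM) in control replicate 4 and 0 counts in control replicate 5. Over 6 adipocyte markers the summed level was 8.10 and 11.6 CPM with 5% mannose, against 94.5 CPM in control replicate 4 and 11.7 CPM in control replicate 5, while the 20% livers had 146, 179 and 103 CPM. All 6 had log2 fold changes at or below -1.56, and 5 had an unadjusted p under 0.05. Without control replicate 4 the median of the list was 0. DESeq2's calls included Adipoq, Retn and the muscle genes Ryr1, Ckmt2 and Mybpc1, which are not hepatocyte genes. Another 18 of its 41 calls were among the 24 lead genes described further below. In such bulk tissue, fewer cells of a type and less RNA per cell cannot be told apart, and the part of this tissue in the other differences was not tested.

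The smallest adjusted p belonged to Xlr4a, an X-linked member of a family of near-identical copies whose reads cannot be told apart well, and it was looked at after its value was seen. It had 0 counts in both mannose livers, against 184 and 127 counts in the controls (3.76 and 2.5 CPM). The smallest detectable level was taken as 3 counts in each library (0.0781 CPM, for counting error only). At that floor Xlr4a was at least 40.1-fold lower with 5% mannose (edgeR adjusted p = 0.0724). The floor takes counts as independent, while 82.0 and 80.4% of counts from 1 to 12 were even in the mannose libraries. If read pairs were counted as 2, which was not tested, the bound is lower. In the 20% mannose livers it had 34, 24 and 32 counts.

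Mpi, Pmm2, Gmppa and Gmppb, all genes of mannose metabolism, had higher mean values in the mannose livers, and none of them passed the test. Mpi (chr9:57451539-57460046, minus strand, on GRCm39, as are all gene positions here) had 14.7 and 12.5 CPM with 5% mannose, against 10.3 and 10.6 CPM without. Both mannose livers were above both controls, a difference of 0.38 ± 0.17 (log2, SE) with an edgeR adjusted p of 0.869. Pmm2 (chr16:8455538-8480331, plus strand) had 49.1 and 53.2 CPM against 36.2 and 50.2 CPM, so that mannose replicate 1 lay just under control replicate 5 and the groups overlapped. Its relative Pmm1 had 7.57 and 9.95 CPM with 5% mannose against 4.62 and 8.90 CPM, and those groups overlapped. Gmppb, the catalytic subunit for GDP-mannose, had 16.9 and 29.5 CPM against 12.1 and 16.5 CPM, and Gmppa, its regulatory partner, had 31.7 and 43.8 CPM against 20.3 and 28.5 CPM. For both subunits the mannose libraries lay above the controls, by 0.70 ± 0.30 and 0.63 ± 0.19 on the log2 scale (edgeR adjusted p 0.869 and 0.84). Without mannose replicate 2 these were 0.24 for Gmppb and 0.38 for Gmppa.

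Of 17 enzymes of mannose, GDP-mannose and GDP-fucose that were tested, 0 passed the threshold. An unadjusted p under 0.05 was reached by 3 higher (Gmppa, Gmppb and Dpm3) and 2 lower (Hk2 and Dpm1), and the median log2 fold change was 0.06 (-0.01 without control replicate 4, with 0 at that p in either direction), against -0.01 for all genes tested. Dpm3 and Dpm1 are subunits of the same dolichol-phosphate-mannose synthase, and their differences had opposite signs: Dpm3 had 32.4 and 29.1 CPM against 21.5 and 25.3 CPM, and Dpm1 had 2.04 and 2.42 CPM against 4.25 and 3.37 CPM. Hk2, a hexokinase scarce in liver, had 0.534 and 0.612 CPM with 5% mannose, against 1.88 and 1.42 CPM without, and the 20% livers had 2.21, 3.84 and 1.65 CPM. Hk1, a ubiquitous hexokinase, had 3.01 and 3.56 CPM against 3.96 and 2.32 CPM, and the groups overlapped.

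The genes that assemble and trim N-linked sugar chains lay mostly on the higher side. Among 38 tested, 0 passed the threshold and 30 had a log2 fold change above 0, against 48.5% of all genes (not matched for level). At an unadjusted p under 0.05, 7 were higher and 0 lower (2.49% and 3.14% of all genes). Their median was 0.16. With library totals as scaling 1 had an unadjusted p under 0.05, 24 were above 0 and the median was 0.12. Alg12, which adds a mannose to the growing chain, had 10.7 and 16.1 CPM with 5% mannose, against 5.33 and 8.37 CPM without (0.97 ± 0.29, edgeR adjusted p = 0.84). Stt3a, the catalytic subunit that moves the chain to proteins, had 104 and 126 CPM against 89.6 and 93.2 CPM. The mannosyltransferases Alg1 (19.7 and 17.2 CPM against 14.1 and 14.3 CPM) and Alg2 (24.3 and 24.3 CPM against 14.5 and 19.8 CPM) also had both mannose livers above both controls. The number with an unadjusted p under 0.05 was 1 when either mannose replicate 2 or control replicate 4 was left out, with a median of 0.12 in both cases.

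Chaperones of the endoplasmic reticulum, where those chains are attached, had 21 of 23 members with a log2 fold change above 0. The share was 48.5% over all genes, not matched for level. Their median was 0.25, with 0 past the threshold. At an unadjusted p under 0.05, 3 were higher and 0 lower (2.49% and 3.14% of all genes). The co-chaperone Dnajb9 had 111 and 116 CPM with 5% mannose, against 55.3 and 85.2 CPM in controls. The secreted stress protein Manf had 102 and 196 CPM against 90.6 and 99.0 CPM, so that mannose replicate 2 alone was far above the controls. Hspa5, the main lumenal chaperone, showed the same split (952 and 1492 CPM against 816 and 886 CPM, an edgeR adjusted p of 0.878). Without mannose replicate 2 the list's median was 0 and 12 of its 23 members were above 0. Without mannose replicate 1 the median was 0.41. Selenos, a selenoprotein of the retrotranslocation machinery, had 83.8 and 98.0 CPM against 71.8 and 75.3 CPM, and Sec61b, a subunit of the translocation channel, had 66.7 and 67.8 CPM against 46.9 and 58.3 CPM.

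**Figure D1:**
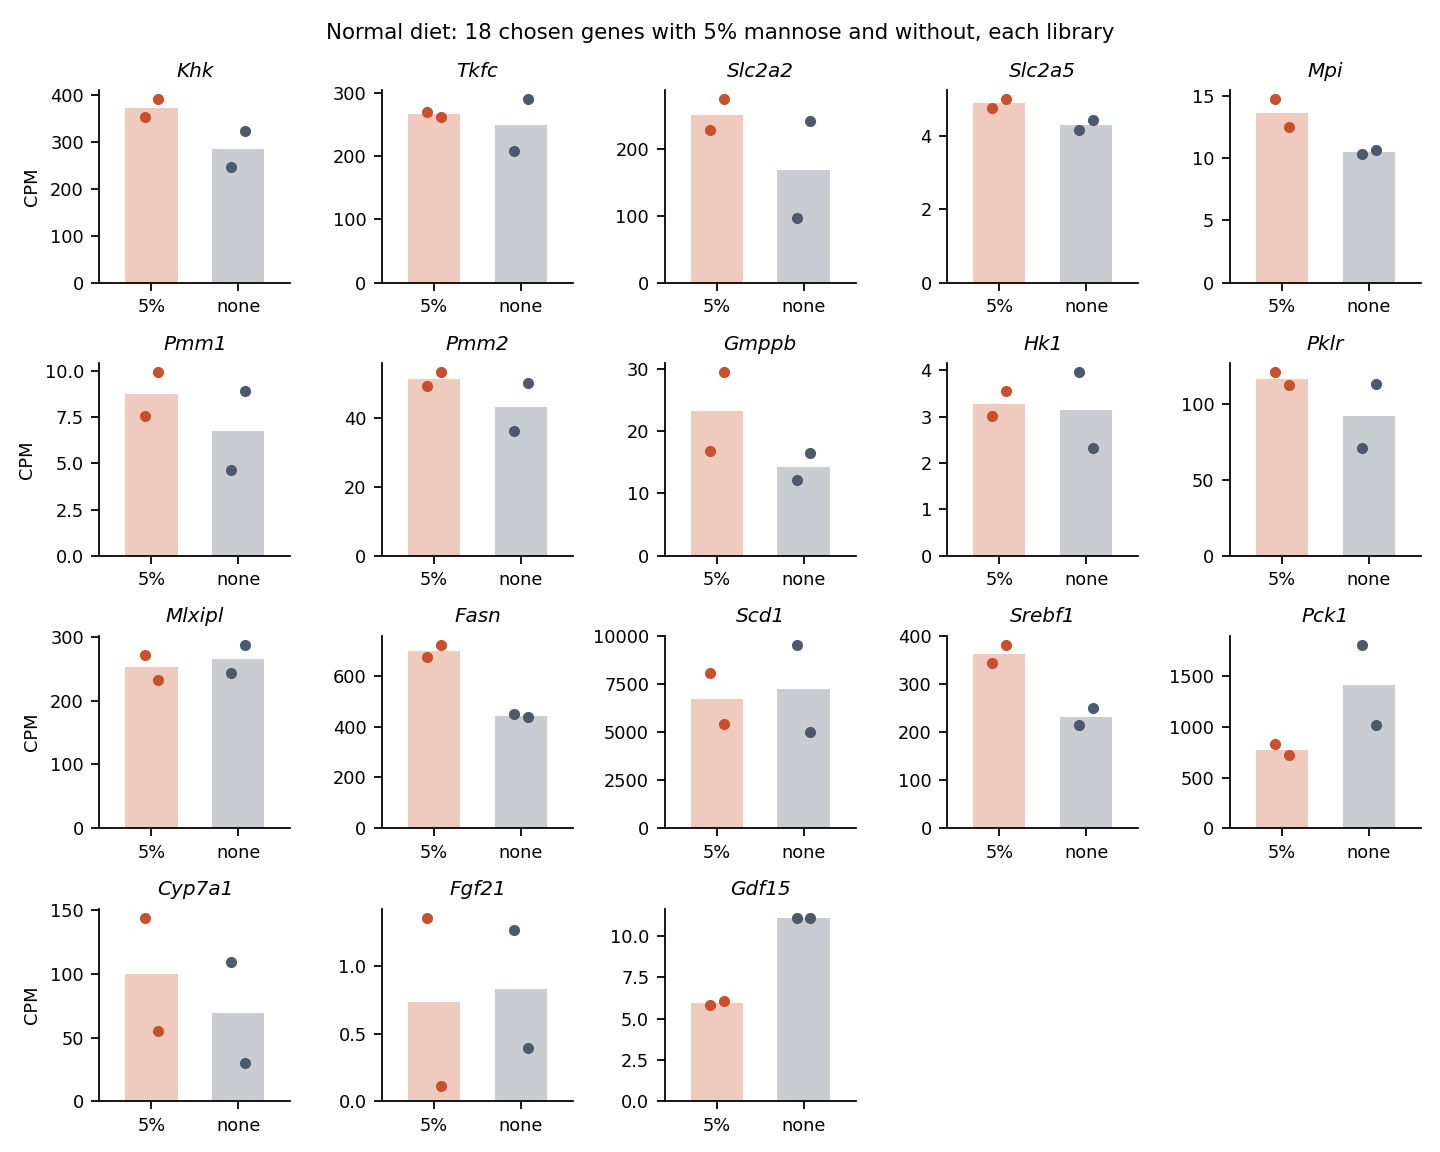
CPM of 18 genes of mannose, fructose, glucose, lipid and bile acid metabolism and of stress in the 4 normal-diet livers, with 5% mannose left of none; points are libraries and bars are means of 2. Fasn, Srebf1 and Gdf15 have points that do not meet between the groups, while for Slc2a2, Pck1 and Pklr control replicate 4 stands away from the other 3 libraries.

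Khk and Tkfc, of fructose breakdown, had mean levels above those of the controls with 5% mannose on normal diet, and neither passed the test. Khk (chr5:31078775-31088592, plus strand), which phosphorylates fructose, had 354 and 391 CPM with 5% mannose, against 247 and 324 CPM without. Both mannose livers were higher, by 0.38 ± 0.14 on the log2 scale (95% interval 0.07 to 0.70, unadjusted p 0.0224, edgeR adjusted p 0.869), and by 0.20 without control replicate 4 and 0.60 without control replicate 5. Tkfc, the triokinase of the third step, had 269.6 and 262 CPM against 208 and 289 CPM, with an interval from -0.23 to 0.42. For Tkfc the groups overlapped, and the lower bound limits any decrease in this comparison to that size.

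Slc2a2 encodes the main hexose carrier of hepatocytes, and its values turned on 1 control. It had 228 and 274 CPM with 5% mannose, against 96.5 and 241 CPM, where 96.5 CPM is control replicate 4. The log2 difference of 0.57 was 0.06 without that control and 1.38 without control replicate 5, where it passed (edgeR adjusted p 0.00173). The fructose carrier Slc2a5 had 4.78 and 5.00 CPM against 4.17 and 4.45 CPM. Of 13 genes of fructose uptake and breakdown tested, 0 passed the threshold, 1 (Khk) had an unadjusted p under 0.05 and 11 had a log2 fold change above 0, with a median of 0.16. Without control replicate 4 that median was 0.06 and none had an unadjusted p under 0.05.

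The sequence before the Khk start site is shown because sugar-responsive promoters are known to use E-box motifs. It covers chr5:30921309-30921608 (plus strand) in RefSeq's GRCm38.p6, 250 bases before to 50 after the start, with the E-box CACGTG in capitals, which begins 71 bases before the start.
Khk promoter: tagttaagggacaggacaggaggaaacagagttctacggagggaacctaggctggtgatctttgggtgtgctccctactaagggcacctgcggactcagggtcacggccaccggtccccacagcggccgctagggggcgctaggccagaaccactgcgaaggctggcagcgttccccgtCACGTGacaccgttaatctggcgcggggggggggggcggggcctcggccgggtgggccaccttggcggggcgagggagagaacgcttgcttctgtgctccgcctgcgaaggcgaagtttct
CACGTG reads the same on both strands and occurs in 7.15% of the 32851 promoters of the table, so its presence is a description of this window.

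Other genes of sugar handling differed little or unevenly. Pklr, the liver pyruvate kinase, had 121 and 113 CPM with 5% mannose, against 70.9 and 113 CPM without, and Mlxipl, which encodes the sugar sensor ChREBP, had 271 and 233 CPM against 243 and 287 CPM with overlapping groups. Pck1 (chr2:172994841-173001066, plus strand), the enzyme that commits carbon to glucose synthesis, had 825 and 719.8 CPM with 5% mannose, against 1802 and 1019 CPM without. Its difference was -0.87 ± 0.27 (edgeR adjusted p = 0.84), it was -0.40 without control replicate 4, and the gene passed the threshold when control replicate 5 was left out. Slc37a4, which carries glucose 6-phosphate into the endoplasmic reticulum, had 102 and 132 CPM against 62.8 and 98.7 CPM. Igfbp1, a secreted factor that insulin represses, had 10.5 and 25.4 CPM against 133 and 13.3 CPM, and without control replicate 4 its log2 difference was 0.43 in place of -2.03.

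Several lipid synthesis genes separated the groups without overlap. Srebf1 (chr11:60089915-60113407, minus strand), the regulator of fatty acid synthesis, had 343 and 382 CPM with 5% mannose, against 214 and 250.4 CPM without, and the 20% mannose livers had 241, 240.4 and 229 CPM. The 5% livers were the highest of the 7, with a log2 difference to the controls of 0.64 ± 0.12 (unadjusted p 0.000211, edgeR adjusted p 0.399, DESeq2 adjusted p 0.000551). It was 0.76 and passed without control replicate 5 (adjusted p 0.0281), and 0.53 without control replicate 4 (adjusted p 0.719). Fasn, the fatty acid synthase, had 674 and 720.2 CPM against 447 and 437 CPM, 0.66 ± 0.21 higher on the log2 scale (edgeR adjusted p = 0.84). Elovl6, a chain-lengthening enzyme, had 92.6 and 88.7 CPM against 65.2 and 61.8 CPM. Gpam, which starts triglyceride assembly, had 291 and 342 CPM against 204 and 239 CPM. Scd1, the desaturase, went with neither group (8051 and 5434 CPM with 5% mannose, against 9531 and 5001 CPM). Scaled over 25 libraries, Srebf1 had 398, 398 and 382 CPM in the first-batch normal-diet livers. With 5% mannose it had 391 and 442 CPM, and the second-batch controls had 244 and 286 CPM. In the same order Fasn had 834, 1035 and 1158 CPM, 769 and 834.5 CPM, and 510 and 499 CPM. Elovl6 had 77.2, 71.8 and 70.5 CPM, 106 and 103 CPM, and 74.4 and 70.6 CPM. Batch was not adjusted for in these values. Of 23 lipogenic genes tested 0 passed by edgeR, 15 had a log2 fold change above 0 and 8 below, down to -1.9, and the median was 0.16. At an unadjusted p under 0.05, 6 were higher and 0 lower (2.49% and 3.14% of all genes). On the second-batch scale the list summed to 13482 and 10963 CPM with 5% mannose, against 14426 and 9827 CPM without, and the groups overlapped. Its median lay between 0.10 and 0.21 when any 1 of the 4 libraries was left out.

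The 28 genes of cholesterol synthesis and uptake had a median of 0.15, with 0 past the threshold. Both mannose livers were above both controls for 15 and below for 1, against 16.4% and 18.3% of all genes tested. At an unadjusted p under 0.05, 3 were higher (Fdft1, Mvk and Nsdhl), against 2.49% of all genes. Fdft1, the squalene synthase, had 165 and 176 CPM with 5% mannose, against 133 and 135 CPM. Insig1, a feedback brake on the pathway, had 607 and 621 CPM against 460.4 and 446 CPM (edgeR adjusted p = 0.869). The number higher at an unadjusted p under 0.05 was 0 without mannose replicate 2 and 0 with library totals as scaling, and 1 without mannose replicate 1 or control replicate 5.

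Targets of PPAR alpha, the fasting regulator of fat burning, split. Cyp4a14 (chr4:115343397-115353339, minus strand), a fatty acid hydroxylase with close Cyp4a copies whose shared reads make its count uncertain, had 26.0 and 39.3 CPM with 5% mannose, against 94.1 and 116 CPM without. Its log2 difference of -1.69 ± 0.28 had the smallest unadjusted p of the lower lead genes (7.66e-05, edgeR adjusted p 0.381, DESeq2 adjusted p 1.32e-07). Angptl4, a lipoprotein lipase inhibitor, had 34.0 and 31 CPM against 62.3 and 51.1 CPM. In both genes the mannose livers lay below both controls. Crat, the carnitine acetyltransferase, had 44.4 and 46.6 CPM against 61.1 and 55.2 CPM, and Ehhadh, a peroxisomal enzyme, had 270.5 and 263 CPM against 304 and 333 CPM. The list of 31 as a whole was centred near 0, with a median of 0.02, 3 lower and 0 higher at an unadjusted p under 0.05 and 0 past the threshold. Without control replicate 5 the median was 0.20, with 9 higher and 4 lower at that p and 2 past the threshold (Vnn1 higher and Angptl4 lower), and without control replicate 4 the median was -0.04.

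Several bile acid genes had higher values in both mannose livers, and none passed the edgeR test. Cyp8b1 (chr9:121743422-121745371, minus strand), which sets the share of cholic acid, had 401 and 448 CPM with 5% mannose, against 276 and 286 CPM without, and 525, 446 and 516 CPM with 20% mannose. All 5 mannose livers were above both controls, and at 5% the log2 difference was 0.60 ± 0.12 (edgeR adjusted p = 0.445, DESeq2 adjusted p = 0.00204). Slc10a1, the bile acid uptake carrier, had 539 and 528 CPM against 332 and 450.2 CPM, and Baat, which joins bile acids to taurine, had 370.0 and 383 CPM against 291 and 317 CPM. Akr1c6, a hydroxysteroid dehydrogenase, had 1555 and 1665 CPM against 1127 and 1379.6 CPM. Cyp7a1, the rate-limiting enzyme of bile acid synthesis, varied widely within both groups, with 144 and 55.6 CPM against 109.5 and 29.9 CPM, and its interval ran from -0.68 to 1.72. Among 24 genes of the list tested, 4 were higher and 0 lower at an unadjusted p under 0.05 (2.49% and 3.14% of all genes). By edgeR 0 passed, 19 had a log2 fold change above 0 (48.5% of all genes, not matched for level) and the median was 0.16. Without mannose replicate 2, 14 of 24 were above 0 with a median of 0.07, without control replicate 4 it was 13 of 24, and without control replicate 5 Slc10a1 passed the threshold (edgeR adjusted p 0.0313).

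**Figure D2:**
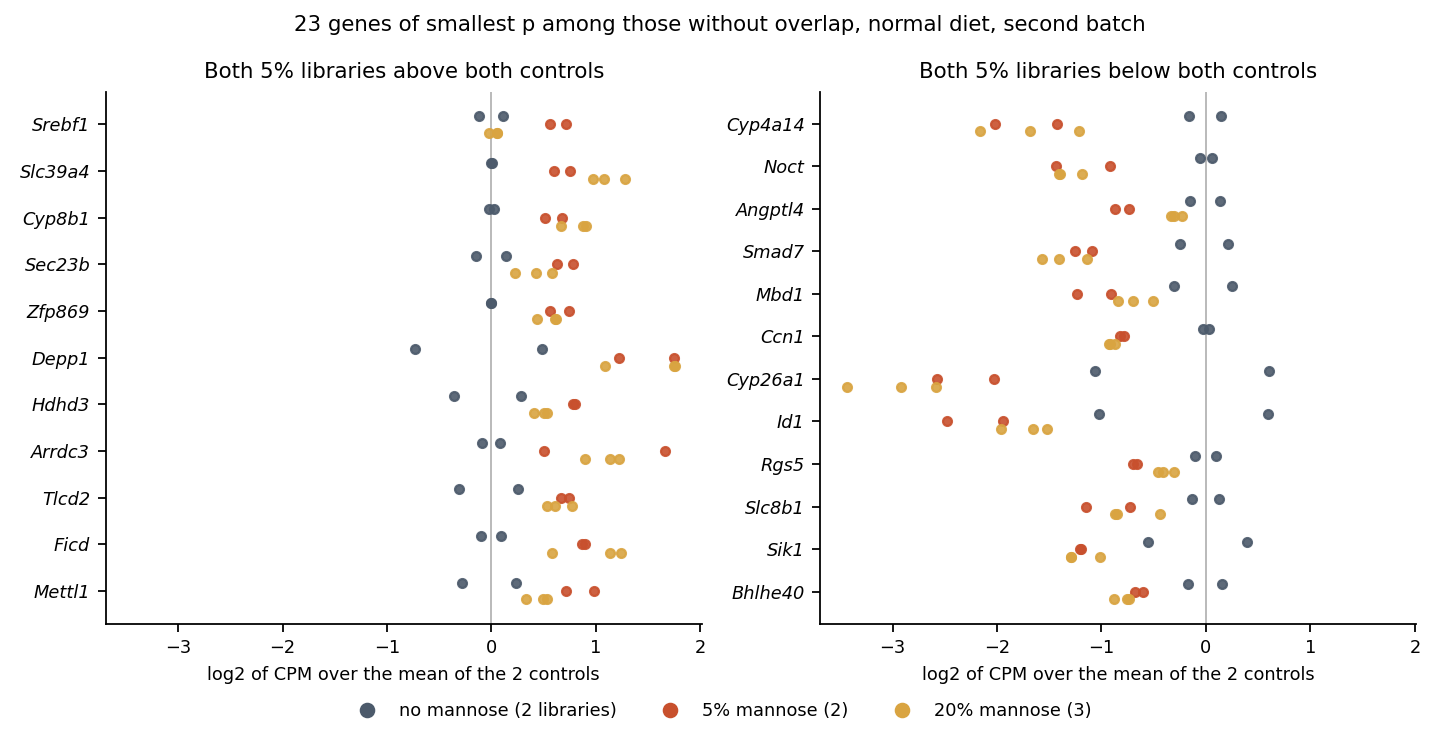
Each point is 1 second-batch library, given as log2 of its CPM over the mean of the 2 controls, for 11 genes with both 5% livers above both controls (left) and 12 with both below (right), chosen for a small p; within a gene the rows run 0, 5 and 20% mannose from top to bottom. For Srebf1 the 5% livers lie above the 20% livers, for Slc39a4 below them, and for Cyp26a1, Id1 and Depp1 the 2 controls lie far apart.

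The lead genes were the 12 on each side with the smallest p among those without overlap and at 5 CPM or more. Of these 24, none passed the threshold by edgeR and 18 passed by DESeq2. Slc39a4 (chr15:76496583-76501584, minus strand), the zinc importer ZIP4, had 72.7 and 80.6 CPM with 5% mannose, against 48.0 and 47.8 CPM without. Its values were 116, 101 and 93.7 CPM with 20% mannose, where it rose by 1.11 ± 0.12 on the log2 scale over the controls and was the only gene of 18462 past the threshold at that dose (edgeR adjusted p 0.0356, 0.00542% called). Sec23b, a coat protein of vesicles leaving the endoplasmic reticulum, had 65.6 and 73.0 CPM at 5% against 38.4 and 46.8 CPM without. Arrdc3, an arrestin-domain protein, had 128 and 57.4 CPM against 42.9 and 38.2 CPM, with mannose replicate 1 far above the other 3 libraries, and its log2 difference of 1.20 was 1.66 without mannose replicate 2 (edgeR adjusted p 0.0472) and 0.50 without mannose replicate 1 (adjusted p 0.846). Depp1, a FOXO target, had 102 and 70.8 CPM against 42.5 and 18.3 CPM, and its log2 difference of 1.51 was 2.24 without control replicate 4 (edgeR adjusted p 0.0485) and 1.03 without control replicate 5 (adjusted p 0.204). Ficd, which modifies the chaperone Hspa5, had 15.5 and 15.2 CPM against 7.75 and 8.86 CPM. Further higher lead genes, the zinc finger gene Zfp869, Hdhd3, Tlcd2 and the tRNA methyltransferase gene Mettl1, had log2 differences of 0.66, 0.79, 0.71 and 0.85.

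The 12 lower lead genes had varied known roles. Noct, a rhythmic phosphatase gene, had 13.9 and 9.73 CPM with 5% mannose, against 27.5 and 25.3 CPM without, and 10.1, 11.6 and 9.96 CPM with 20% mannose. Smad7 (chr18:75500600-75529006, plus strand), an inhibitor induced by TGF-beta and BMP signals, had 12.5 and 11.1 CPM against 30.7 and 22.4 CPM. Id1 (chr2:152578171-152579330, plus strand), a BMP target, had 5.00 and 3.45 CPM against 29.0 and 9.42 CPM. Their log2 differences were -1.17 ± 0.21 and -2.18 ± 0.43 (edgeR adjusted p 0.381 and 0.444). For Id1 the difference was -1.15 without control replicate 4, and without control replicate 5 both passed, with -1.38 for Smad7 and -2.77 for Id1 (edgeR adjusted p 0.0204 and 0.00121). Hamp, the iron hormone that BMP signals also induce, had 1061.5 and 791 CPM against 965 and 541 CPM, with overlapping groups and a log2 difference of 0.30 ± 0.24. Of 22 iron genes tested 0 passed, and the median log2 fold change was -0.08. At an unadjusted p under 0.05, 4 were lower and 0 higher (3.14% and 2.49% of all genes). The 4 were Smad7, Id1, the metalloreductase Steap4 and the iron exporter Slc40a1. Smad7 and Id1 are lead genes, already chosen for a small p in these data.

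Sik1, a kinase gene that cAMP induces, had 18.4 and 18.2 CPM with 5% mannose, against 55.5 and 28.8 CPM without, and its log2 difference of -1.20 was -0.65 without control replicate 4 and -1.60 without control replicate 5 (edgeR adjusted p 0.00261). Bhlhe40, a clock repressor, had 40.2 and 38.1 CPM against 54.4 and 67.8 CPM, and Ccn1, a matricellular protein gene, had 11.8 and 12.1 CPM against 21.3 and 20.5 CPM. The chromatin gene Mbd1, the pericyte gene Rgs5 and the mitochondrial sodium-calcium exchanger gene Slc8b1 complete the lower lead genes, with log2 differences of -1.06, -0.68 and -0.92.

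Cyp26a1 (chr19:37686246-37689984, plus strand), the enzyme that degrades retinoic acid and is induced by it, had 10.3 and 15.1 CPM with 5% mannose, against 29.3 and 93.4 CPM without. With 20% mannose it had 5.68, 10.2 and 8.08 CPM, so all 5 mannose livers were below both controls. The log2 difference at 5% was -2.28 ± 0.45 (edgeR adjusted p = 0.444), and it was -2.88 with an adjusted p of 0.0127 without control replicate 4, and -1.21 with an adjusted p of 0.172 without control replicate 5. Its relative Cyp26c1, looked at after its value was seen, had 0.291 and 0.278 CPM with 5% mannose, against 2.04 and 4.94 CPM without (edgeR adjusted p = 0.545). Its promoter is shown because retinoic acid receptors are known to bind paired half-sites. The window is chr19:37697558-37697857 (plus strand) of RefSeq's GRCm38.p6, and the capitals mark, read on the reverse strand, the half-site AGTTCA repeated with 5 bases of any kind between, from 32 to 16 bases before the start.
Cyp26a1 promoter: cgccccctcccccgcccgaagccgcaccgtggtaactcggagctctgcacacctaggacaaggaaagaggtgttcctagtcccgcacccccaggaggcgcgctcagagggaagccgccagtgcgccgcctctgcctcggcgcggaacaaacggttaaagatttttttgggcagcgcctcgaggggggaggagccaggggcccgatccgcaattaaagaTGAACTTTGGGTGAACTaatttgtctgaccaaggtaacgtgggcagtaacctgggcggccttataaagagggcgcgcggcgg
Searched on both strands, AGTTCA repeated at that spacing occurs in 8 of 32851 promoters of the table (0.0244%). Only these letters, which are those of this window, were searched. Other spellings of the half-site were not, so the share is not that of receptor sites. A match describes the letters of the window and nothing about what binds there.

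Immediate early genes, which growth and stress signals switch on within minutes, had lower values in the mannose livers. Summed over the 25 members tested, they made 264 and 351 CPM with 5% mannose, against 488 and 422 CPM without, and 233, 433 and 582 CPM with 20% mannose, so the 20% livers spanned both groups. Only 2 of 25 had a log2 fold change above 0, the median was -0.55 and 0 passed the threshold. Both mannose livers were below both controls for 15, against 18.3% of all genes. At an unadjusted p under 0.05, 8 were lower, against 3.14% of all genes. Jun had 9.99 and 15.2 CPM with 5% mannose, against 30.9 and 45.7 CPM (-1.61 ± 0.36, edgeR adjusted p = 0.606). Dusp1, a phosphatase that ends MAP kinase signals, had 15 and 27.1 CPM against 57.7 and 44.0 CPM, and Fosl2, a partner of Jun, had 9.51 and 10.1 CPM against 16.5 and 14.5 CPM. Egr1 went with neither group (13.7 and 11.4 CPM against 30.0 and 6.18 CPM) and reached 115 CPM in a 20% liver. The list's median stayed between -0.75 and -0.56 when any 1 of the 4 libraries was left out. How long the tissue waited before it was frozen is not stated.

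Glucocorticoid-responsive genes had a median of -0.59 over 18 tested, with 0 past the threshold. At an unadjusted p under 0.05, 8 were lower and 0 higher (3.14% and 2.49% of all genes). The list shares members with other lists, among them Dusp1, Per1, Pck1, Angptl4 and Igfbp1. For Igfbp1 the groups overlapped, as given above. Per1 had 3.18 and 2.36 CPM with 5% mannose, against 4.46 and 6.15 CPM. Tsc22d3 and Fkbp5, both widely used readouts of the receptor, overlapped between groups (67.1 and 80.6 CPM against 54.5 and 82.5 CPM for Tsc22d3, and 15.7 and 17.0 CPM against 23.5 and 12.5 CPM for Fkbp5). Without control replicate 4 the median was -0.28 and 3 were lower. The stress hormones Fgf21 and Gdf15 gave no passing difference: Fgf21 had 1.36 and 0.111 CPM against 1.27 and 0.394 CPM, and Gdf15 had 5.82 and 6.06 CPM against 11.1 and 11.1 CPM.

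**Figure D3:**
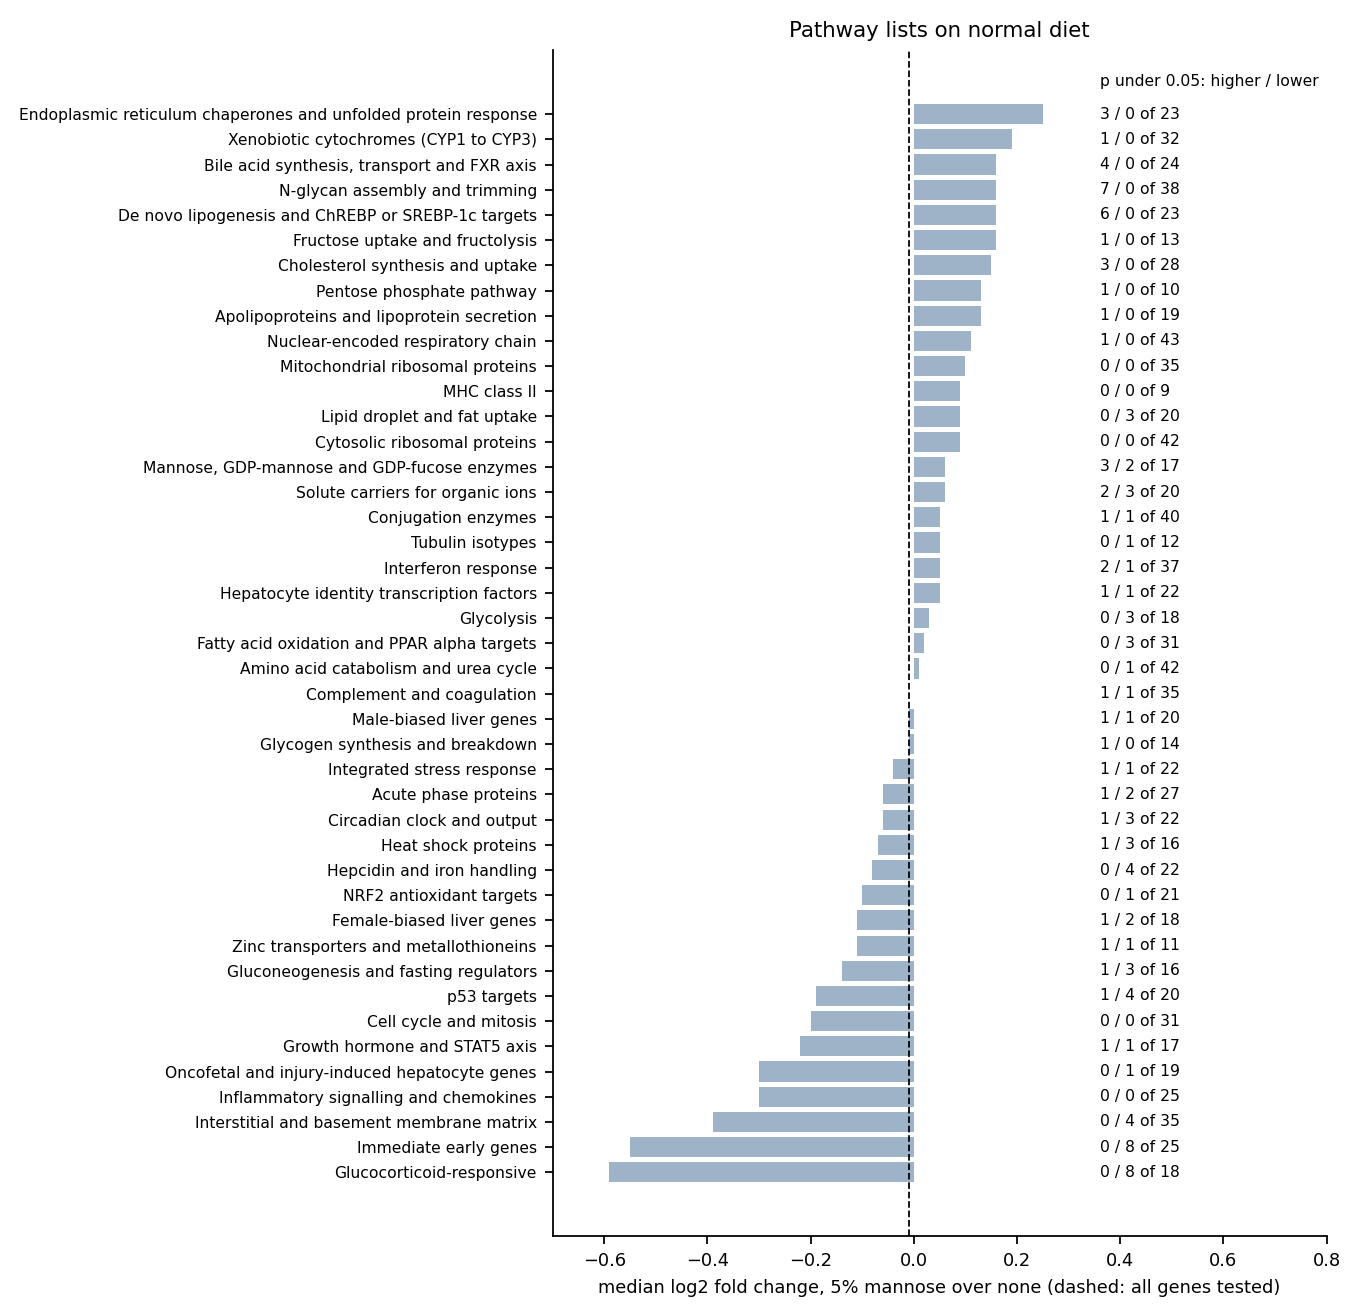
Bars give the median log2 fold change, 5% mannose over none, of each of 43 pathway lists on normal diet, with the dashed line at the median of all genes tested (-0.01) and, at the right, how many members had an unadjusted p under 0.05 on the higher and lower side. Endoplasmic reticulum chaperones lie at the top (0.25) and glucocorticoid-responsive genes at the bottom (-0.59), and no list held a gene past the threshold.

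Genes of the matrix turned on control replicate 4 as well. The summed level of 35 interstitial and basement membrane genes hardly differed (2347 and 2307 CPM with 5% mannose, against 2433 and 2166 CPM), whereas the median log2 fold change was -0.39, and 4 were lower at an unadjusted p under 0.05. The protease inhibitor Timp3 had 7.37 and 5.84 CPM against 13 and 9.63 CPM. Thbs1, which activates TGF-beta, had 0.970 and 0.167 CPM against 3.54 and 1.20 CPM. Sparc had 49.6 and 43.5 CPM against 78.7 and 49.6 CPM, and elastin (Eln) had 3.69 and 2.25 CPM against 6.48 and 4.27 CPM. Without control replicate 4 the median was -0.09 with 0 lower, and without mannose replicate 2 it was -0.08.

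**Figure D4:**
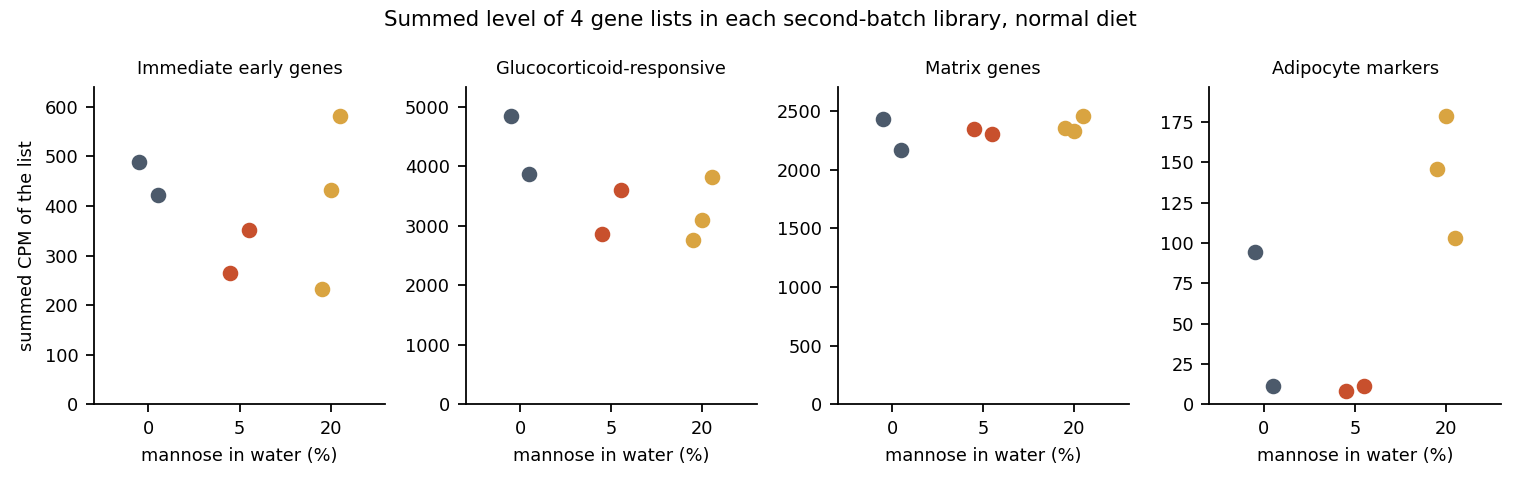
Summed CPM of 4 gene lists in each second-batch library on normal diet, by percent mannose in the water (0, 5 and 20). Immediate early and glucocorticoid-responsive genes are lower in both 5% livers than in both controls. At 20% the immediate early sums span both groups, while the glucocorticoid-responsive sums all lie below both controls. Matrix genes are level, and adipocyte markers are low in both 5% livers and 1 control.

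The dose was compared directly within the batch. Between 20% and 5% mannose, 0 of 18462 genes passed the threshold by edgeR (0% called), 861 had an unadjusted p under 0.05 (4.66%), DESeq2 called 51 and voom 0. Leaving out control replicate 4 or 5, which enter only the spread, gave 19 and 17 genes. This comparison shares the 5% livers with the one above. Srebf1 was 0.61 ± 0.11 lower on the log2 scale at 20% than at 5% (edgeR adjusted p = 0.339), and Angptl4 was 0.51 ± 0.13 higher (adjusted p 0.94). Slc39a4 was 0.43 ± 0.12 higher at 20% (adjusted p 1.0), with the lowest 20% liver at 93.7 CPM and the highest 5% liver at 80.6 CPM. Cyp4a14, Noct and Smad7 had differences between the doses of 0.05 ± 0.25, -0.17 ± 0.18 and -0.19 ± 0.19, which their SE spans.

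The effect of 5% mannose was then set against its effect over the same 12 weeks under the FAT-MASH regimen. Each effect lies within 1 batch, and the groups share no library, but diet and batch cannot be told apart in their difference. In the fit of all 25 libraries the difference passed the threshold for 112 of 21373 genes (0.524%), 61 with the higher effect on normal diet (0.285%) and 51 with the lower (0.239%). With library totals alone as scaling these were 20 and 70, and the median difference of all genes was -0.16. Of the 112 genes, 74 also passed under the regimen (409 of 21373, 1.91%), and 7 passed on normal diet in this fit (0.0328%): Xlr4a, Pf4, Smad7, Dusp8, Ugt1a7c, Id1 and B230206L02Rik, all lower. Leaving out any 1 of the 10 libraries other than prevention replicate 3 moved the count by over 1.5 times, to between 19 (without prevention replicate 1) and 332 (without control replicate 5).

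Tubb2a, a beta-tubulin, differed under the regimen and hardly at all on normal diet. On normal diet it had 199 and 216 CPM with 5% mannose, against 192 and 218 CPM without (values scaled over 25 libraries), whereas under the regimen it had 585, 371 and 593 CPM with 5% mannose, against 153, 154 and 160.5 CPM. It rose under the regimen by 1.73 ± 0.17 on the log2 scale, and the effect on normal diet was 1.71 ± 0.26 smaller (edgeR adjusted p = 0.0046). Arl4d, a small GTPase gene, fell by 2.36 ± 0.27 under the regimen (12.7, 10.6 and 12.8 CPM against 89.7, 34.0 and 61.3 CPM) and had 24.6 and 31 CPM against 31.9 and 17.1 CPM on normal diet. The nucleoside carrier Slc29a1 fell under the regimen by 0.79 ± 0.13 and was 0.51 ± 0.16 higher on normal diet, a difference of 1.31 ± 0.20 (edgeR adjusted p = 0.0046). These genes and those of the next paragraph were chosen after their values were seen, by the smallest p of the difference.

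Of the lower lead genes, Id1, Smad7, Sik1, Ccn1, Cyp4a14, Bhlhe40 and Rgs5 had the opposite sign under the regimen. Angptl4, Noct, Slc8b1, Mbd1 and Cyp26a1 had the same sign there. Those past the threshold under the regimen were Angptl4 (-1.25 ± 0.25), Ccn1 (0.86 ± 0.22) and Sik1 (0.77 ± 0.20). Lead genes were chosen by their effect on normal diet, which enters the difference again. Id1 had 5.70 and 3.99 CPM with 5% mannose on normal diet, against 33.0 and 10.8 CPM without, and 27.4, 22.6 and 23.6 CPM under the regimen with 5% mannose, against 9.15, 15.3 and 9.68 CPM with the regimen alone. Its effects differed by -3.29 ± 0.50 (edgeR adjusted p = 0.0046). The 3 normal-diet livers of the first batch had 5.61, 4.62 and 5.85 CPM of Id1, the level of the mannose livers. Smad7 had 14.2 and 12.9 CPM against 35.0 and 25.5 CPM on normal diet, 17.7, 21.0 and 19.9 CPM against 14.1, 16.0 and 13.5 CPM under the regimen, and 10.9, 10.9 and 12.5 CPM in the first-batch normal-diet livers. The Smad7 difference of -1.58 ± 0.27 (edgeR adjusted p 0.00794) no longer passed without control replicate 4 (0.0612). Sik1 differed by -1.96 ± 0.31 and the bile acid carrier Slc10a2 by -2.40 ± 0.34 (edgeR adjusted p 0.00532 and 0.00332).

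Among 28 immediate early genes in this fit, 5 had a lower effect on normal diet than under the regimen past the threshold and 0 a higher one, against 0.239% and 0.285% of all genes, and 4 rose under the regimen. The median log2 effect of the list was -0.53 on normal diet and 0.73 under the regimen. Jun differed by -2.31 ± 0.43 (edgeR adjusted p = 0.0183) and Fosl2 by -1.24 ± 0.22 (adjusted p 0.0136). The Jun difference no longer passed without prevention replicate 1 (0.0588) or without mannose replicate 1 on normal diet (0.0848). Khk had 0.98 as its difference, fitted with an edgeR adjusted p of 0.0817, and Cyp7a1 2.29 (adjusted p 0.0951), neither past the threshold.

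**Figure D5:**
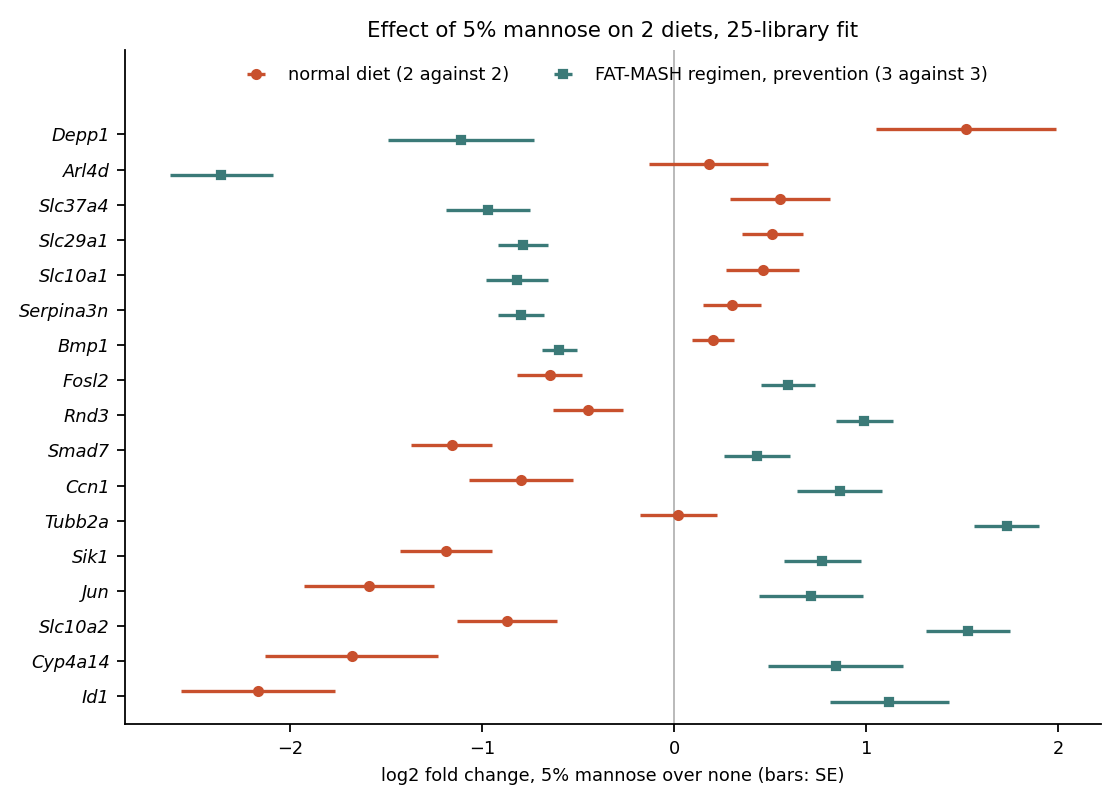
Log2 fold change of 5% mannose over none with its SE on normal diet (circles, 2 against 2 libraries) and under the FAT-MASH regimen in the prevention arm (squares, 3 against 3) for the 17 named genes whose effects differed past the threshold in the fit of 25 libraries. Id1 lies at -2.17 on normal diet and 1.12 under the regimen, while Tubb2a lies at 0.02 and 1.73.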

How the data were processed

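Liver poly-A RNA was sequenced, and the authors deposited 1 table of read counts per gene, with 56980 genes and 25 libraries. Per the submitters' processing notes reads were aligned with STAR to GRCm39 and counted with featureCounts 2.0.6, while the file header names featureCounts 2.0.1 and GENCODE M31. Strand and multi-mapping settings are not in the header. In the second-batch libraries 78.8 to 82.0% of counts from 1 to 12 were even, and in the first batch 76.0 to 81.3%. The 37 mitochondrial genes were listed at 0 counts. The 25 libraries hold 31298299 to 56010646 counts.

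From these counts edgeR 4.0.16 (R 4.3.3) fitted the 7 second-batch libraries with TMM scaling, filterByExpr and quasi-likelihood tests, with p adjusted by Benjamini-Hochberg over all genes tested and called under 0.05. The 5% livers were compared with second-batch controls and with 20% livers, and the difference of effects between diets was tested over all 25 libraries with a mean per group and batch. SE is the log2 fold change over the root of F. Alternatives were DESeq2 1.42.0, limma 3.58.1 voom, other scalings, no filter, fewer or more libraries, a replicate block, leaving out each library, and, added after seeing the data, halved counts. Code was tested on simulated data.

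The genes to name were 20 key genes, 12 lead genes on each side (both mannose livers beyond both controls, a mean of at least 5 CPM, smallest p), up to 4 members a list with the smallest p, and 10 genes of the diet difference. A gene outside this rule is said to be so or illustrates its list. A few of these genes are not reported here. The members and the 59 gene lists were chosen with earlier results of these data known.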

Additional observations from a re-analysis of the deposited data

Results flagged for a closer look

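The log2 effect of 5% mannose differed between normal diet and the FAT-MASH regimen for 17 of the named genes, by the edgeR test of the difference itself over 25 libraries. Each value is the effect on normal diet minus the effect under the regimen, and diet and batch cannot be told apart in it. The 10 with the smallest p were chosen for this difference, so their values are a description.

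The effect was lower on normal diet for Id1 (-3.29), the ileal-type bile acid carrier gene Slc10a2 (-2.40), Cyp4a14 (-2.52), Jun (-2.31), Sik1 (-1.96), Tubb2a (-1.71), Ccn1 (-1.65), Smad7 (-1.58), Rnd3 (-1.44) and Fosl2 (-1.24). It was higher on normal diet for Depp1 (2.62), Arl4d (2.54), Slc37a4 (1.52), Slc29a1 (1.31), Slc10a1 (1.28), the acute phase gene Serpina3n (1.1) and the procollagen protease gene Bmp1 (0.80).

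Arl4d, Id1, Rnd3, Sik1, Slc10a2, Slc29a1 and Tubb2a stayed past the threshold in each of 16 alternatives. Smad7 lost its call in 1, Bmp1, Jun and Serpina3n in 2 each, Fosl2 and Slc10a1 in 4 each, Ccn1 in 7, Cyp4a14 in 9, Slc37a4 in 10 and Depp1 in 12.

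For Slc10a2 the 2 second-batch controls lay apart. It had 24.5 and 22.9 CPM with 5% mannose on normal diet, against 58.4 and 28.1 CPM without, and 61.3, 59.7 and 79.6 CPM with 5% mannose under the regimen, against 18.9, 21.6 and 29.0 CPM. The first-batch normal-diet livers had 23.8, 22.9 and 16.7 CPM of Slc10a2.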

How the results depend on the processing

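Between 5% mannose and none, 0 genes passed with RLE factors, halved counts, voom or only the 4 libraries, while 41 passed with DESeq2, 7 with all 25 libraries, 1 with library totals and 222 with no filter. Leaving out 1 library gave 0 to 98. Between 20% and 5% mannose 51 passed with DESeq2, 128 with no filter and 18 with only the 5 libraries, and leaving out 1 library gave 0 to 19. For the difference between diets the 112 genes became 523 with DESeq2, 897 with no filter, 52 with only the 10 libraries and 32 with voom, and 19 to 332 with 1 library left out. Of the list members 14 passed with DESeq2, 2 with all 25 libraries and 76 with no filter, and 0 to 35 with 1 library left out. The cause was not tested. The replicate block on library numbers gave 16 genes for 5% against none, 16 for 20% against 5% and 8 list members. Same-numbered 5% and control livers had deviations correlated at 0.0632, so the numbers were not taken to pair the samples. Of 1344 values of 84 genes under alternatives, 1247 kept direction and side of the threshold, 79 newly passed and 18, of 11 genes, changed sign. With 1 library left out these 11 ranged from -0.12 to 0.36 for Tkfc, -0.02 to 0.92 for Pmm1, -0.27 to 0.50 for Hk1, -0.19 to 0.06 for Mlxipl, -0.50 to 0.43 for Scd1, -0.33 to 1.74 for Cyp7a1, -2.87 to 0.90 for Fgf21, -0.77 to 0.06 for Aldh1b1, -2.89 to 0.43 for Igfbp1, -0.08 to 0.10 for Tubb2a and -0.21 to 0.69 for Arl4d, and Tubb2a was -0.03 with library totals. An arm left with 1 liver was assumed to vary like the other groups. The median 95% interval was 1.21-fold wide on each side for genes at 50 CPM or more and 11.0-fold below 1 CPM. How far depth or the spread between 2 livers a group sets these widths was not tested.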

Other observations

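For 2 lists of housekeeping genes the scale is that 48.5% of all genes tested were above 0, not matched for level. Genes at 50 CPM or more had a median of 0.05. Of nuclear-encoded subunits of the respiratory chain, 40 of 43 had a log2 fold change above 0 with a median of 0.11. Among them 1 was higher at an unadjusted p under 0.05 (2.49% of all genes) and 0 passed. Without mannose replicate 2, 28 of 43 were above 0. Cytosolic ribosomal protein genes had 35 of 42 above 0 (median 0.09), and 19 of 42 without control replicate 5.

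Among cell type markers, the 12 of Kupffer cells, the resident liver macrophages, summed to 388 and 339 CPM with 5% mannose, against 402 and 432 CPM without, with a median log2 fold change of -0.18 (0.04 without control replicate 5, with 8 of 12 above 0). Recruited macrophage markers had a median of -0.67 (135 and 100.2 CPM with 5% mannose, against 189 and 119.7 CPM), and of 0.08 without control replicate 4. Stellate cell markers had a median of -0.53, and of -0.08 without that control. Acta2, a smooth muscle and myofibroblast actin, had 2.86 and 1.00 CPM against 11.7 and 4.47 CPM. Pericentral hepatocyte markers had a median of 0.27, and of -0.07 without control replicate 4.

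The clock repressor Nr1d1 had 48.7 and 43.6 CPM with 5% mannose, against 26.2 and 25.5 CPM without (0.84 ± 0.28, edgeR adjusted p = 0.84). The metallothionein gene Mt1 had 7.03 and 5.89 CPM against 41.2 and 7.72 CPM.

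The 3 normal-diet livers of the first batch had a mean nearer to the 5% livers than to the second-batch controls for 16 of the 24 lead genes (66.7%), for 56.3% of 3410 non-overlapping genes at 5 CPM or more and for 54.5% of all 9651 genes at that level. Batch was not adjusted for in these counts.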
